A study of Mus musculus with 15 samples.

Results

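The genes described here mark T cells and cytotoxic lymphocytes, and there are 10 of them among the 55450 genes of the annotation used. They were given as a list of names, Cd3d, Cd3e, Cd3g, Cd4, Cd8a, Gzma, Gzmb, Prf1, Nkg7 and Foxp3, and each was found by its symbol. They were followed through 15 RNA sequencing libraries from C57BL/6 mice, 3 in each of 5 groups. One group was healthy brain, and the other 4 were GL261 tumors given 0, 50, 100 or 200 µg per dose of B20.4.1.1, a monoclonal antibody that blocks VEGF-A. GL261 is a mouse glioma line that is implanted into the brain of mice of the same strain, so the host keeps its own lymphocytes. Mice were dosed every 3 days from day 10 on, and the tumors were frozen after perfusion with saline. The group given 0 µg is called untreated here, because the labels do not name a control antibody for it. The labels state that each group held individual samples, and age and sex are not given in the sources used here. Groups were taken from the titles. A second label, the agent tag, departed from the title for replicate 3 of every tumor group, 4 libraries in all, of which 3 carried another dose and 1 carried none.

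T cells recognise antigen through the T cell receptor, which signals through the CD3 chains encoded by Cd3d, Cd3e and Cd3g. The co-receptors CD4 and CD8 split T cells into helper and killer types, and FOXP3 is the transcription factor of regulatory T cells. Killer T cells and natural killer (NK) cells carry granules of perforin (Prf1), which makes pores in a target cell, and granzymes such as Gzma and Gzmb, proteases that enter through them. Nkg7 encodes a membrane protein of those granules. In the healthy brain such cells are scarce within the tissue itself, while gliomas are entered by them to a varying degree.

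Levels are in FPKM, fragments per kilobase of transcript and per M mapped fragments, where M is mega, summed over the assembled transcripts on the exons of a gene, each weighted by the share of the exonic length that it covered. The libraries held an estimated 16.3 to 56.9 M fragments. The lowest 1% of listed transcripts rested on about 11 to 13 estimated fragments each, so a gene with fewer reads was listed at 0. For Cd3g, a full-length transcript of that size would have had 0.332 to 0.625 FPKM in the tumor libraries and 0.202 to 0.709 FPKM in the brain libraries. Neuron genes separated the tissues. The 8 neuron markers summed to 1839 to 2637 FPKM in brain and 3.78 to 18.1 FPKM in tumor. The leukocyte gene Ptprc (CD45) was 0, 1.18 and 0.684 FPKM in the brain libraries and 1.94 to 7.63 FPKM in the tumor libraries. The 5 leukocyte genes did not all go that way, since Coro1a was 30.8 to 44.8 FPKM in brain and 4.33 to 12.5 FPKM in tumor, and Laptm5 overlapped between the tissues. In 4 tumor libraries, replicate 3 at 100 µg and all 3 at 200 µg, 7.23% to 8.95% of genes were assembled in pieces, against 16.7% to 35.6% in the other 8. These values come from bulk tissue, in which fewer cells of a type and less RNA per cell cannot be told apart.

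The sequences shown first are the joined exons of Cd3g, the place in Cd4 where the brain transcripts began, and the promoters of 4 granule genes that were at 0 in brain and above 0 in most or all tumor libraries. The Cd3g joins below are 5 of the 6 exon junctions of its messenger RNA (GENCODE M21, GRCm38). All 6 were present in an assembled transcript of each of the 12 tumor libraries, and none in a brain library. Lower case is the end of one exon and capitals are the start of the next.

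Cd3g exon 2 to 3: cccagacaaataaagCAAAGAATTTGGTAC
Cd3g exon 3 to 4: aagtgtattacagaaTGTGTGAAAACTGCA
Cd3g exon 4 to 5: ttcgccagtcaagagCTTCAGACAAGCAGA
Cd3g exon 5 to 6: gaacagctgtaccagCCCCTCAAGGACCGG
Cd3g exon 6 to 7: tcagcaggactcaggGTGTCCCCCCTTCTA

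For Cd4, the stretch shown is coding sequence of exon 6 of 10 (GRCm38, chr6:124870421-124870540, minus strand). Capitals mark the bases from the most upstream 5′ end of a spliced brain transcript onward.

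Cd4 exon 6: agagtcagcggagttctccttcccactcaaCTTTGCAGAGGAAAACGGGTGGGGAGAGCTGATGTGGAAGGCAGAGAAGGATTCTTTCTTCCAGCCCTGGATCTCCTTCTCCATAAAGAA

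The last set is the 250 bases before the start of the 4 granule genes (RefSeq, GRCm38.p6), shown because those genes were at 0 in brain and all 4 were above 0 in 10 of the 12 tumor libraries. They lie at chr13:113100982-113101231 on the minus strand for Gzma, chr14:56262335-56262584 on the minus strand for Gzmb, chr10:61297586-61297835 on the plus strand for Prf1 and chr7:43436888-43437137 on the plus strand for Nkg7. Capitals mark the letters TGTGGT of a RUNX motif or TGANTCA of an AP-1 motif, on either strand.

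Gzma promoter: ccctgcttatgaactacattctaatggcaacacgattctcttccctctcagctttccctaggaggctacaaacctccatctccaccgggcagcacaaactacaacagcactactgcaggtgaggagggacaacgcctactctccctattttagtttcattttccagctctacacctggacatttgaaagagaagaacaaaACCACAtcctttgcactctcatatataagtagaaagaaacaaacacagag
Gzmb promoter: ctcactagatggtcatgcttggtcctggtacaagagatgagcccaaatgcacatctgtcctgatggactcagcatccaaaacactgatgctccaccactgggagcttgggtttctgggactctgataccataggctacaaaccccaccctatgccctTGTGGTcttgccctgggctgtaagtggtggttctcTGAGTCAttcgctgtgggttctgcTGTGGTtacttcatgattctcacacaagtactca
Prf1 promoter: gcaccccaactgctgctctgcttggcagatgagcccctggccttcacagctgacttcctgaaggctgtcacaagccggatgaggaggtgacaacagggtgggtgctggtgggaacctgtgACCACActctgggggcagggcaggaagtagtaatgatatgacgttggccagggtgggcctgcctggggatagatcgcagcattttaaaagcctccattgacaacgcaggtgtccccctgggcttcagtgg
Nkg7 promoter: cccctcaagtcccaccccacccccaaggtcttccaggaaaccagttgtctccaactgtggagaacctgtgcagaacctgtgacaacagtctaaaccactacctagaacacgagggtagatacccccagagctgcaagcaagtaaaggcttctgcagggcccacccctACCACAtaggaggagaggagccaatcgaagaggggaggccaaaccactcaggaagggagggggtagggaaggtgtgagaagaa

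The RUNX letters stood in all 4 of these promoters, once in Gzma, Prf1 and Nkg7 and 2 times in Gzmb. They stood in 14% of 32851 mouse promoters of the same length, and in none of those of Cd3d, Cd3e, Cd3g, Cd8a and Foxp3. The AP-1 letters, which overlap none of the RUNX matches, were found in Gzmb alone among the members and in 6.75% of all promoters. Of the other motifs searched, the NFAT core GGAAA was in 55.6% of all promoters and was found in those of Gzma and Nkg7 but not of Gzmb or Prf1. The E-box CANNTG, in 66.2% of all, was in every member's promoter, and TATAAA, in 12.4% of all, was in the promoter of Foxp3 only. No entry for Cd4 was matched. A match is a run of letters and not a measured binding site.

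Healthy brain listed few of these genes. In each of the 3 brain libraries 8 of the 10 were listed at 0, and the other two were Cd4 and Foxp3, whose transcripts there are described below. In the tumor libraries between 5 and 10 were above 0. Replicate 2 at 200 µg had all 10, and replicate 3 at 200 µg had the fewest, with 5. These counts include Foxp3, whose level in tumor came from transcripts that also covered other genes. Counting only genes with a transcript that shared an intron with them, these 2 libraries had 9 and 4. The fewest by that count were 3, in replicate 3 at 50 µg.

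**Figure D1:**
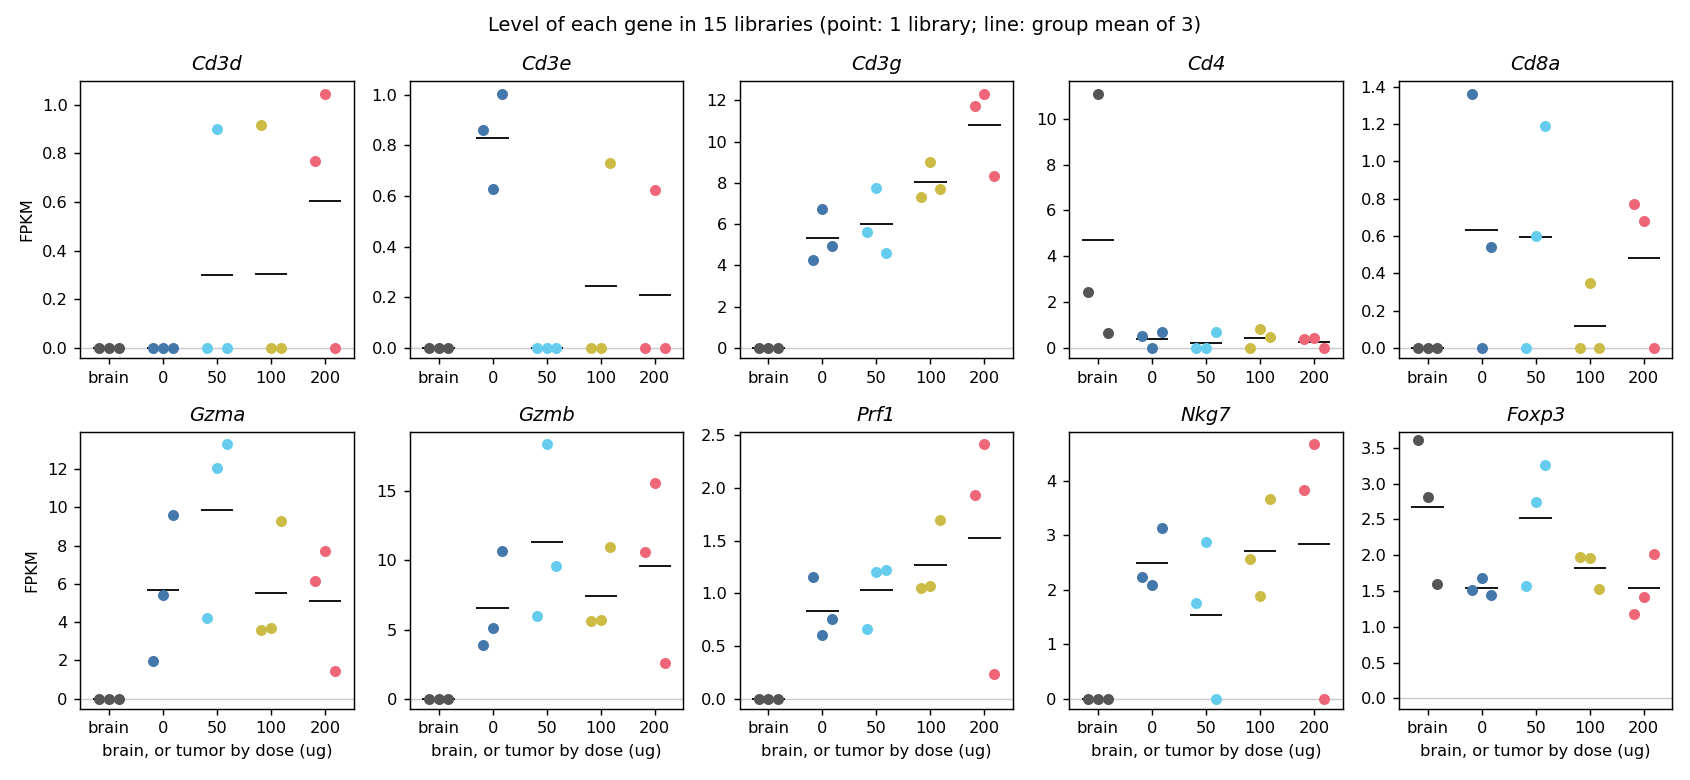
Level of each of the 10 genes in FPKM (vertical axis, linear, own scale per gene) in healthy brain and in tumors by dose in µg; each point is 1 library and each line the mean of a group of 3. Cd3g lies at 4.25 FPKM or more in all 12 tumor libraries and at 0 in brain, whereas Cd3d and Cd3e reach at most 1.04 FPKM.

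Among the CD3 chains, Cd3g stood far above its partners. It lies on chr9:44969572-44980431 on the minus strand. Cd3g was 4.25, 6.73 and 4.94 FPKM in untreated tumor, 5.62, 7.77 and 4.59 FPKM at 50 µg, 7.33, 9.01 and 7.72 FPKM at 100 µg, and 11.7, 12.3 and 8.35 FPKM at 200 µg, and it was 0 in all 3 brain libraries. The groups overlapped at 0 and 50 µg, whereas no library at 100 or 200 µg was below the highest untreated one. Each value rested on 81.0 to 428 estimated fragments, and all 26 transcripts that carried it shared introns with Cd3g and covered no other gene.

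Cd3d, whose start lies 1355 bp from that of Cd3g on the opposite strand, was above 0 in 4 of the 12 tumor libraries. It was 0.899 FPKM in replicate 2 at 50 µg, 0.916 FPKM in replicate 1 at 100 µg, and 0.767 and 1.04 FPKM in replicates 1 and 2 at 200 µg. No untreated library had a Cd3d transcript. Those detected rested on 27.9 to 57.4 estimated fragments and held all 4 introns of the gene.

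Cd3e, which signals beside Cd3d and Cd3g, was above 0 in other libraries. It was 0.861, 0.628 and 1.00 FPKM in the 3 untreated tumors, 0.732 FPKM in replicate 3 at 100 µg and 0.626 FPKM in replicate 2 at 200 µg, and it was 0 in all 3 libraries at 50 µg. Only replicate 2 at 200 µg had all 3 CD3 genes above 0. All 7 Cd3e transcripts also touched the annotated gene Gm48719, so on transcripts that covered no other gene Cd3e was 0 in all 15 libraries, while 6 of the 7 shared an intron with Cd3e. A full-length transcript of the lowest listed size would have had 0.210 to 0.395 FPKM for Cd3d and 0.232 to 0.437 FPKM for Cd3e in tumor, below the lowest Cd3g level of 4.25 FPKM.

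The co-receptors differed in where they appeared. Cd8a, which marks killer T cells, was 0 in brain and above 0 in 7 of the 12 tumor libraries. It was 1.36, 0 and 0.539 FPKM in untreated tumor, 0, 0.599 and 1.19 FPKM at 50 µg, 0, 0.346 and 0 FPKM at 100 µg, and 0.768, 0.679 and 0 FPKM at 200 µg. Every group overlapped every other. A transcript that shared an intron with Cd8a was present in 4 of those 7 libraries, which were replicate 1 of untreated tumor, replicate 2 at 100 µg and replicates 1 and 2 at 200 µg.

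Cd4, the helper co-receptor, was higher in brain than in tumor. It was 2.42, 11.1 and 0.642 FPKM in the brain libraries. In tumor it was 0.504, 0 and 0.704 FPKM without treatment, 0, 0 and 0.693 FPKM at 50 µg, 0, 0.845 and 0.473 FPKM at 100 µg, and 0.413, 0.417 and 0 FPKM at 200 µg. The brain libraries spread widely, and the lowest of them lay within the range of tumor.

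The exons show what the brain value is made of. Every spliced Cd4 transcript in brain held the last 4 of the 9 introns and began within exon 6, so that 689 of the 1371 coding bases lay upstream of the most upstream 5′ end, the position marked in the sequence above. None of the brain libraries covered exons 1 to 5. In tumor, a transcript with all 9 introns was present in replicate 3 at 100 µg alone and one with 6 introns in replicate 3 of untreated tumor, and 3 others reached back only to exon 6. A level summed over the gene therefore set 3′ transcripts in brain beside a mixture of forms in tumor.

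**Figure D2:**
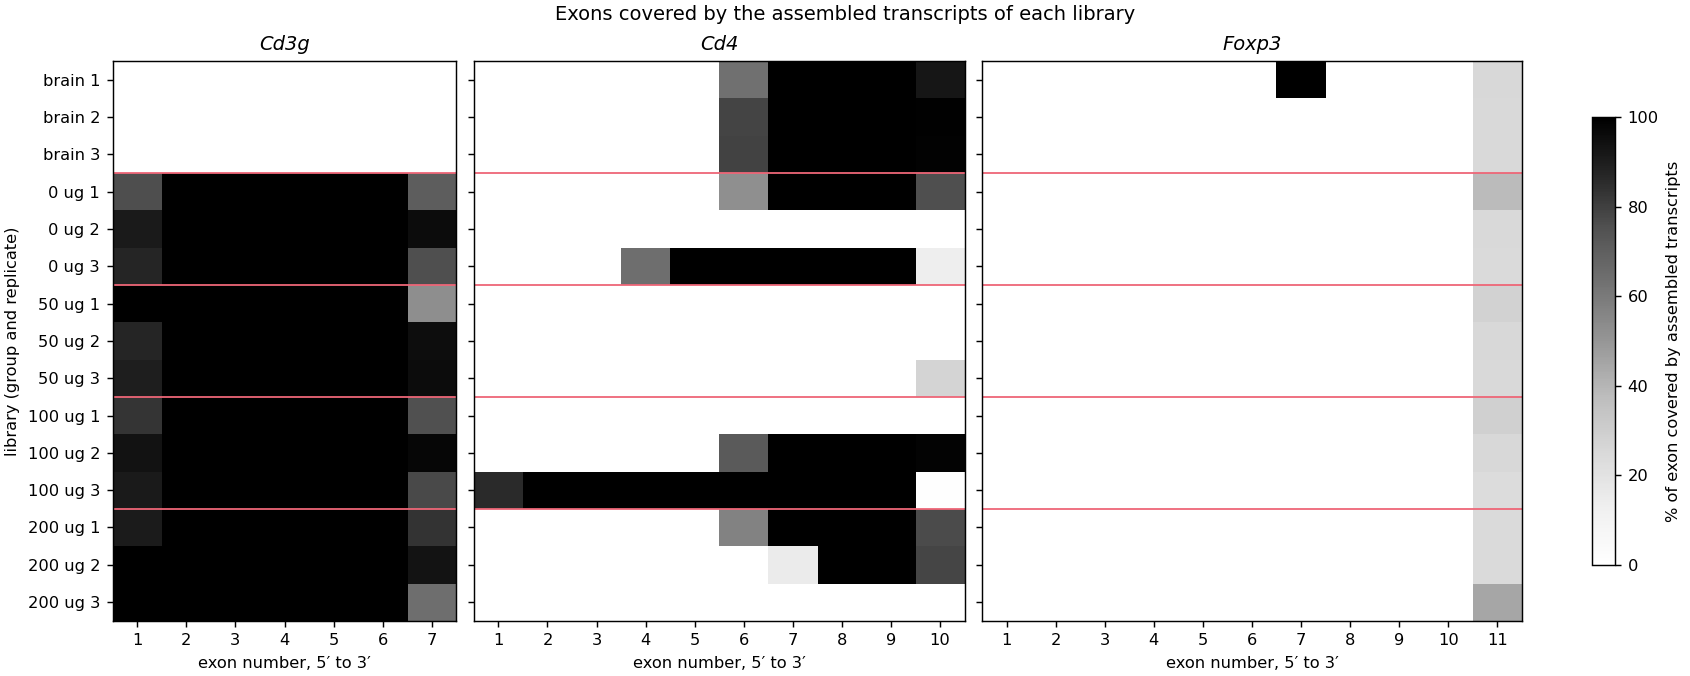
Share of each exon (percent, grey scale) covered by the assembled transcripts of each library (rows, by group and replicate) for Cd3g, Cd4 and Foxp3, exons numbered 5′ to 3′. Cd3g was covered from exon 1 to exon 7 in all 12 tumor libraries and not in brain, Cd4 in brain from exon 6 onward only, and Foxp3 almost only in part of its last exon.

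Over the 12 tumor libraries Gzmb had a mean of 8.73 ± 4.82 FPKM (SD), Cd3g 7.53 ± 2.59 FPKM and Gzma 6.53 ± 3.86 FPKM, which do not differ beyond their spread, and the granule genes Nkg7 and Prf1 were lower, at 2.40 ± 1.41 and 1.16 ± 0.61 FPKM. Gzma was 1.98, 5.40 and 9.59 FPKM in untreated tumor, 4.22, 12.02 and 13.3 FPKM at 50 µg, 3.59, 3.71 and 9.27 FPKM at 100 µg, and 6.14, 7.71 and 1.46 FPKM at 200 µg. Gzmb was 3.91, 5.11 and 10.7 FPKM in untreated tumor, 5.96, 18.4 and 9.62 FPKM at 50 µg, 5.64, 5.66 and 10.98 FPKM at 100 µg, and 10.6, 15.6 and 2.57 FPKM at 200 µg. Both were 0 in brain, both were above 0 in all 12 tumor libraries, and in both the spread within a dose was wider than the distance between doses.

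Prf1, the pore former, was 1.15, 0.600 and 0.756 FPKM in untreated tumor, 0.661, 1.20 and 1.22 FPKM at 50 µg, 1.05, 1.07 and 1.69 FPKM at 100 µg, and 1.93, 2.41 and 0.233 FPKM at 200 µg. It was 0 in brain. Only 7 of the 12 tumor libraries had a Prf1 transcript that shared an intron with the gene, and none of the libraries at 50 µg did.

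Nkg7 was 2.24, 2.09 and 3.14 FPKM in untreated tumor, 1.76, 2.88 and 0 FPKM at 50 µg, 2.58, 1.88 and 3.67 FPKM at 100 µg, and 3.84, 4.67 and 0 FPKM at 200 µg. It was 0 in brain and in 2 tumor libraries. In replicate 3 at 50 µg the granzymes were high and Nkg7 was 0, whereas in replicate 3 at 200 µg no granule gene of the 4 was lower in another tumor library.

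That last library also had the lowest summed level of the 18 NK cell receptor genes among the tumors, 57.2 FPKM against 82.9 to 200 FPKM in the untreated tumors. Nearly all of that sum was Fcer1g, Fcgr3 and Tyrobp, at 15.3, 16.2 and 24.3 FPKM, which macrophages also express, so that it is no measure of NK cells alone. The 5 leukocyte genes summed to 52.8 FPKM there, against 95.7 and 103 FPKM in replicates 1 and 2 at 200 µg, and Ptprc was 2.79 FPKM against 5.78 and 6.25 FPKM. Its red blood cell genes summed to 217 FPKM, against 35.6 and 39.6 FPKM in the other 200 µg libraries and 65.3 to 232 FPKM in untreated tumor. Its macrophage genes summed to 213 FPKM, close to the 215 FPKM of replicate 2, but most of each sum was Lyz2, at 172 and 161 FPKM. Lyz2, Cd14 and Mrc1 were higher than in replicate 2, and the other genes of that list were lower. Among those, Adgre1 was 2.39 against 5.86 FPKM and Ly6c2 was 0 against 4.20 FPKM. The part of these differences in the granule values was not tested.

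Foxp3 was listed at 1.19 to 3.61 FPKM in all 15 libraries, brain included, but no value could be assigned to the gene itself. None of the 47 transcripts that touched its exons shared one of its introns, and 46 of them also covered another gene, in 42 cases Ccdc22. In 14 libraries they reached only part of its last exon. On transcripts that covered no other gene, Foxp3 was 0 in 14 of the 15 libraries.

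The first comparison asked which of these genes differed between untreated tumor and healthy brain. Testing needed a mean level of 1 FPKM or more across those 6 libraries, and 6 of the 10 members met it, Cd3g, Cd4, Gzma, Gzmb, Nkg7 and Foxp3. Of the 6, 4 were called higher in tumor and none lower at an adjusted p under 0.05 (limma, Benjamini-Hochberg), where 32.7% of the 16340 genes tested were called higher and 28% lower. Those 4 were all at 0 in brain and met the filter through tumor, so that they had to differ, and their count is a description. The median difference of the 6 was 2.17 on the log2(FPKM + 1) scale, beside 0.14 over all genes tested.

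Cd3g was higher by 2.64 ± 0.19 (SE, n = 3 against 3), with an adjusted p of 6.32e-05 from limma. Gzmb was higher by 2.82 ± 0.33, Gzma by 2.55 ± 0.45 and Nkg7 by 1.79 ± 0.17, and the limma adjusted p of the 3 ranged from 0.0002 to 0.003. In each of these 4 genes all 3 tumor libraries lay above all 3 brain libraries, which were at 0, so that this too is a description. Because brain was at 0, the size of these differences depends on the pseudocount. With 0.1 in place of 1 FPKM they were 5.73 for Cd3g, 5.93 for Gzmb, 5.58 for Gzma and 4.67 for Nkg7. Cd4 was lower in tumor by a difference of -1.58 ± 0.71, which missed the threshold (limma adjusted p = 0.099).

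Prf1 and Cd3e were too low for that test. With the filter lowered to 0.1 FPKM, the difference was 0.87 ± 0.17 for Prf1 and 0.87 ± 0.15 for Cd3e. Both were at 0 in brain and met the lower filter through tumor alone, so these are descriptions too. Cd8a was not called there, with a difference of 0.62 ± 0.32 and a limma adjusted p of 0.147.

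With the 4 tumor groups averaged against brain, the same 6 members were tested, 4 were called higher and Cd4 was called lower. In this comparison 38.6% of the 15952 genes tested were called higher and 27.6% lower. Cd3g was higher by 3.03 ± 0.16, Gzmb by 3.12 ± 0.42, Gzma by 2.72 ± 0.45 and Nkg7 by 1.60 ± 0.47. Cd4 differed by -1.65 ± 0.44 (limma adjusted p = 0.0049), on the 3′ transcripts described above. That call rests on brain replicate 2, without which the mean of Cd4 was below 1 FPKM and it was not tested. Foxp3, on transcripts of its neighbours, was not called here.

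**Figure D3:**
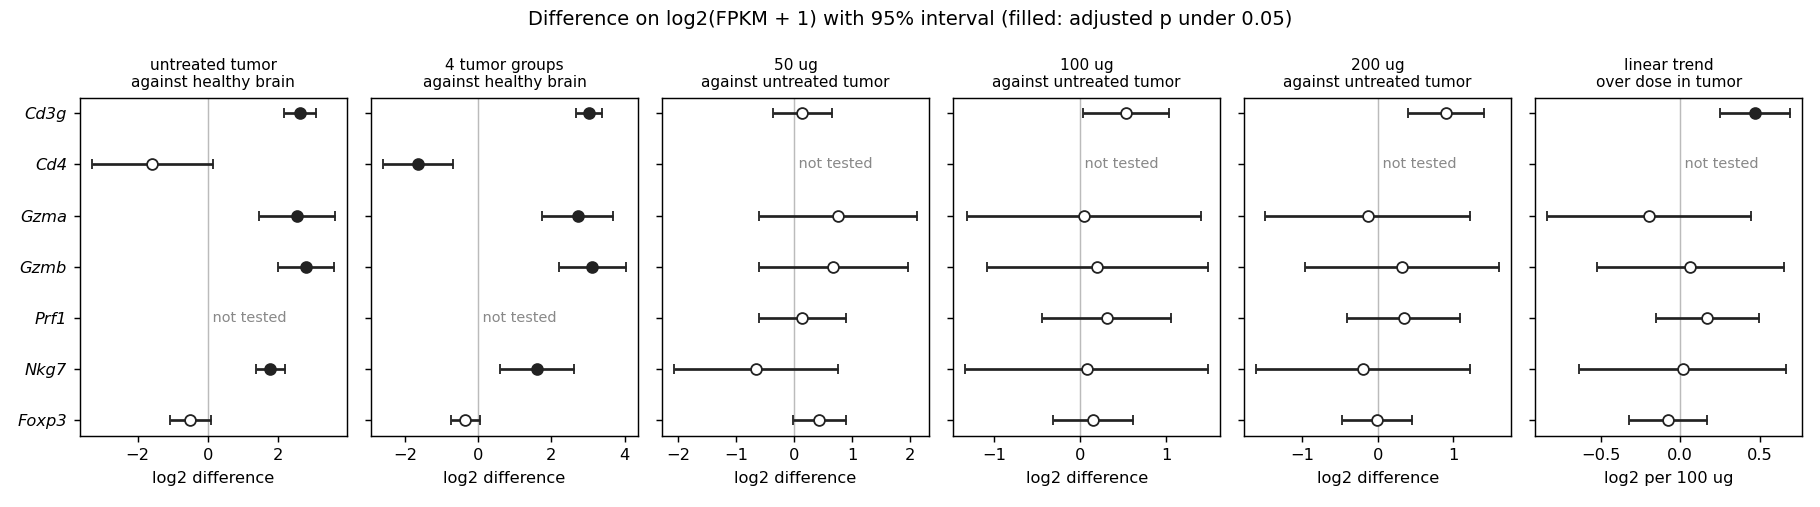
Difference of each tested gene on the log2(FPKM + 1) scale in the 6 comparisons, with its 95% interval from limma; filled points have an adjusted p under 0.05, and the last panel gives the slope per 100 µg. Cd3g, Gzma, Gzmb and Nkg7 were higher in tumor than in brain, and among the dose comparisons the slope of Cd3g alone was called.

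The next comparisons asked whether antibody dose changed these genes. None of the 6 members tested was called at 50, 100 or 200 µg against untreated tumor, where 0%, 0.0887% and 2.83% of the 14653 genes tested were called. Before adjustment, 588, 1313 and 3376 of those genes had a limma p under 0.05, and among the members that held for Cd3g alone, at 100 and 200 µg. Cd3g came closest, at 200 µg, with 0.91 ± 0.23 and a limma adjusted p of 0.061, and its 95% interval was 0.40 to 1.41. At 100 µg it differed by 0.53 ± 0.23 and at 50 µg by 0.14 ± 0.23.

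A linear trend over dose was called for Cd3g and for no other member. The slope was 0.47 ± 0.10 on the log2(FPKM + 1) scale per 100 µg (limma adjusted p = 0.0207), in a comparison where 5.1% of the 14653 genes tested were called with a rising slope and 2.43% with a falling one. The call depended on the grouping and on single libraries. It was lost when the agent tag set the groups (slope 0.35, limma adjusted p = 0.305), and when the 4 libraries with few genes in pieces, which include all of the 200 µg group, had a term of their own (slope 0.49, limma adjusted p = 0.326). It was also lost without replicate 3 of untreated tumor (limma adjusted p = 0.055), replicate 1 at 200 µg (0.0864) or replicate 2 at 200 µg (0.0872). The slope lay between 0.43 and 0.55 in all 12 fits that left out a single tumor library. Without the 4 libraries whose tag disagreed it was 0.52, with a limma adjusted p of 0.041.

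For the granule genes the dose comparisons had wide intervals. At 200 µg against untreated tumor the difference was -0.13 for Gzma, with a 95% interval of -1.49 to 1.23, and 0.32 for Gzmb, with -0.96 to 1.61. It was 0.34 for Prf1, with -0.40 to 1.09, and -0.20 for Nkg7, with -1.61 to 1.22. A change of 1 on the log2 scale in either direction lay within the intervals of Gzma and Nkg7. Replicate 3 at 200 µg set much of this spread. Without it the differences were 0.43 for Gzma, 0.98 for Gzmb, 0.80 for Prf1 and 0.60 for Nkg7, still not called. The slope of Prf1 rose to 0.39 per 100 µg, which was called (limma adjusted p = 0.046).

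The other granule genes also varied within each dose. The clustered granzymes Gzmc, Gzmd, Gzme, Gzmf and Gzmg were 0 in brain, in replicate 1 of untreated tumor and in replicate 3 at 200 µg. Gzmf was highest in replicates 2 and 3 at 50 µg, at 21.4 and 24.2 FPKM, and Gzmc in replicate 2 at 200 µg, at 20.9 FPKM. These 5 genes share 4.14% to 21.9% of their 50-base stretches with one another or with Gzmn, so that how reads were divided among them is uncertain. None of the 5 was called by limma in a dose comparison, although Gzme and Gzmg had an unadjusted p under 0.05 at 50 µg and Gzme at 200 µg.

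Gzmm behaved otherwise. This granzyme was 3.97, 0 and 3.997 FPKM in brain, at most 0.738 FPKM in untreated tumor, 0 in all 3 libraries at 50 µg, 0, 1.37 and 4.99 FPKM at 100 µg, and 10.7, 9.34 and 8.58 FPKM at 200 µg. It was called higher at 200 µg against untreated tumor, by 3.02 ± 0.50 (limma adjusted p = 0.0195), and in the trend, by 1.67 ± 0.28 per 100 µg (limma adjusted p = 0.0097). Gzmm met the filter only through the 200 µg group, where it was high, so that these calls are descriptions. Its 4 highest tumor libraries were the 4 with few genes in pieces, and the part of that property in the difference was not tested. Gzmk was 0 in all 15 libraries.

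**Figure D4:**
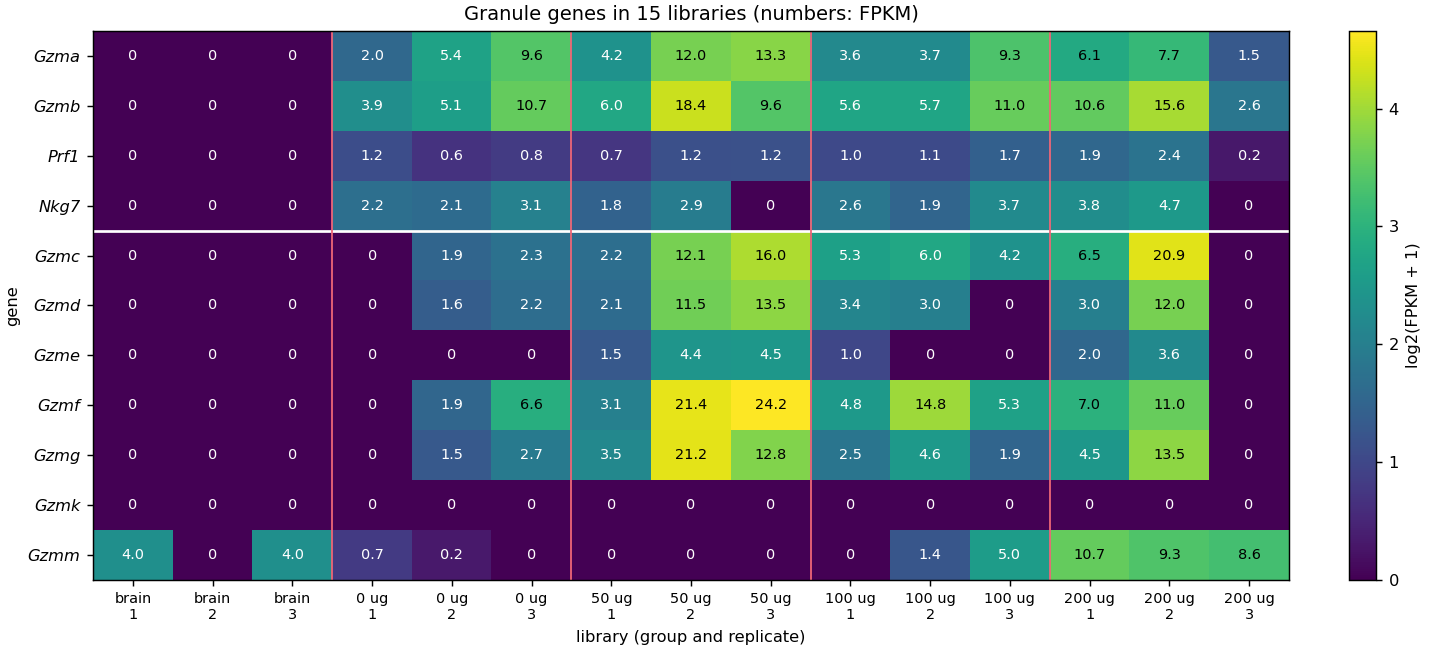
FPKM of 11 granule genes (rows) in 15 libraries (columns, by group and replicate), coloured by log2(FPKM + 1), with the members above the white line. Gzma to Gzmg vary from library to library within a dose and are lowest or 0 in replicate 3 at 200 µg, while Gzmm is highest in the 3 libraries at 200 µg.

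Of the 18 other granule and killing genes, 10 could be tested between untreated tumor and brain, 5 were called higher and none lower, beside 32.7% and 28% of all genes, and the median difference was 1.67. The strongest were Stx11, which helps granules fuse with the membrane (3.00 ± 0.20), Unc13d, which primes that fusion (1.91 ± 0.23), Ctsc, the protease that activates granzymes (2.44 ± 0.34), and Tnfsf10, the death ligand TRAIL (1.84 ± 0.20). Stx11 was at 0 in brain, so that it had to differ, and the other three had a limma adjusted p of 0.00102 or less. Myeloid cells also express Ctsc and Stx11. The sum of the 9 macrophage and monocyte genes was 32.8 to 46.3 FPKM in brain and 93.8 to 248 FPKM in untreated tumor. Most of that rise was Lyz2, at 3.51 to 4.77 FPKM in brain and 43.1 to 153 FPKM in untreated tumor. Not every gene of the list rose, since Csf1r was 11.7 to 15.8 FPKM in brain and 7.96 to 14.3 FPKM in untreated tumor. The part of myeloid cells in these differences was not tested.

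Among the 22 genes of the T cell receptor and its signaling, 8 could be tested between untreated tumor and brain, with 4 called higher and 1 lower, where 32.7% of all genes tested were called higher and 28% lower. Lck, the kinase that starts receptor signaling, was higher by 2.22 ± 0.20 (limma adjusted p = 0.0002), and was 4.62 to 8.76 FPKM in the 12 tumor libraries against at most 0.565 FPKM in brain. Lck met the filter through tumor, so that this difference is a description. The adaptor Lcp2 was higher by 1.24 ± 0.34 and the kinase Fyn by 0.51 ± 0.17. Trbc2, a constant segment of the receptor, went the other way, at 35.5, 9.01 and 17.1 FPKM in brain against at most 3.67 FPKM in tumor (-3.05 ± 0.69, limma adjusted p = 0.009). Its partner Trac was above 0 in 1 brain library and in 5 of the 12 tumor libraries. Cd5 and Cd96 were above 0 in 1 library each, and Themis in none.

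Genes of T cell differentiation and homing moved in both directions, with 4 of 7 tested called higher in untreated tumor than in brain and 2 lower, beside the same 32.7% and 28% of all genes. The adhesion receptor Cd44, which many cell types carry, was higher by 4.77 ± 0.13 and the chemokine receptor Cxcr6, at 0 in brain, by 1.55 ± 0.24. Bcl11b, a T cell factor that neurons also use, was lower by a difference of -3.95 ± 0.38, and S1pr1, which guides lymphocyte exit and is also found in vessels and glia, by -3.13 ± 0.22. Tbx21 and Cxcr3 were 0 in all 15 libraries.

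Of 8 regulatory T cell genes tested between untreated tumor and brain, 2 were called lower and none higher, and only those 2 had an unadjusted limma p under 0.05. That share is near the 28% of all genes tested that were called lower. They were Gpr83 and Ikzf4, with differences of -3.25 ± 0.30 and -0.87 ± 0.16. Gpr83 was at 0 in untreated tumor and met the filter through brain alone, so that it had to differ. Tigit, an inhibitory receptor, was at 0 in brain, met the filter through tumor alone and differed by 1.14 ± 0.33 when the 4 tumor groups were averaged. Ikzf4 was also called in the trend over dose (0.48 ± 0.11 per 100 µg, limma adjusted p = 0.0249). Ccr4 and Ccr8 were 0 throughout.

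NK cell receptors were sparse. Ncr1, which defines NK cells in the mouse, was 0 in all 15 libraries, as were Klrg1 and the receptors Klra3, Klra7, Klra8 and Klra9. Other receptors of the list, Klrd1, Klre1, Klrc1 and Klrb1c, were 0 in brain and in part of the tumor libraries. In the remaining tumor libraries they were above 0 and reached 3.27, 3.60, 1.43 and 0.581 FPKM. Klrk1, which killer T cells share, was 0 in brain and 0.618 to 3.42 FPKM in the 12 tumor libraries, a difference of 1.35 ± 0.21 over the 4 tumor groups. It met the filter through tumor alone, so that this is a description. In untreated tumor against brain 2 of 3 tested genes of this list were called higher, beside 32.7% of all genes tested. They were the signaling chain Fcer1g (1.94 ± 0.42) and the Fc receptor Fcgr3 (1.52 ± 0.28), both of which macrophages also carry.

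The list of genes that attract T cells held 11 chemokines and the adhesion molecules Icam1 and Vcam1. Of its 8 genes tested, 7 were called higher in untreated tumor than in brain, 6 chemokines and Icam1. Over all genes tested 32.7% were called higher and 28% lower. The median difference of the list was 2.49, beside 0.14 over all genes tested. Cxcl9, Ccl5, Ccl3 and Ccl4 were at 0 in brain and met the filter through tumor alone, so that they had to differ. Cxcl10 and Cxcl16, at most 0.627 and 1.23 FPKM in brain, also met the filter through tumor, and their differences are descriptions. Cxcl10 was higher by 5.55 ± 0.30, Ccl5 by 5.18 ± 0.24, Ccl4 by 2.67 ± 0.22 and Cxcl16 by 2.28 ± 0.32. Ccl5 was 24.4 to 42.6 FPKM in untreated tumor and 0 in brain. None of the 9 genes of this list tested, the 2 adhesion molecules included, was called by limma in a dose comparison, and only Ccl3 and Icam1, in the trend, had an unadjusted p under 0.05. Of the 8 B cell genes, Ms4a1 and Blk were 0 in all 15 libraries, and the list summed to 0 to 1.31 FPKM in brain and 2.92 to 4.73 FPKM in tumor.

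The genes whose levels over the 12 tumor libraries were most like the mean of the CD3 chains were Bsdc1 (Pearson r = 0.90), Nfe2l1 (0.90), Ap3m2 (0.89), Slc2a6 (0.87) and Nav1 (0.87), out of 14647 compared. For the mean of Gzma, Gzmb, Prf1 and Nkg7 they were Rest (0.86), Hspbap1 (0.81), Foxm1 (0.80), Fam208a (0.80) and Gm19918 (0.78). None belongs to the T cell and NK cell lists used here. With 12 libraries and that many genes, these are descriptions of the libraries, which also differ in assembly.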

How the data were processed

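STAR alignment to mm10 and Cufflinks assembly made these data, per the submitters' processing notes; versions are not given in the sources used here. For each of the 15 libraries the authors deposited a separate table of assembled transcripts with coordinates and FPKM, without gene names. Transcripts were placed on the GENCODE M21 basic gene set with strand ignored, because most spliced loci were listed on both strands, and single-exon transcripts under 200 bp were set aside. An exact 0 can be a failed assembly.

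Tests used limma 3.58.1 in R 4.3.3 on log2(FPKM + 1) for genes averaging 1 FPKM or more in a fit, with Benjamini-Hochberg adjustment over all genes tested. Untreated tumor and brain were compared over 6 libraries, the 4 tumor groups and brain over 15, and doses over 12. The scale understates changes of low genes. Depth was estimated from the FPKM and its confidence limits in the deposited tables. The tests were tried on simulated data. P-values measure the spread between the samples of a group. Members and lists were chosen with earlier results of these data known. All 10 members are described. From each further list, the text names the called genes, up to the 4 with the smallest p, and genes at 0 or of uncertain origin were added after their values were seen. A few items are not reported here.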

Additional observations from a re-analysis of the deposited data

How the results depend on the processing

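Each comparison was repeated under other choices of value, filter, scaling, grouping and fit. For the 10 member results called, 223 of the 228 alternative values kept the direction and the call. Most of these values were Cd3g, Gzma, Gzmb and Nkg7 against brain. Those genes were at 0 in brain and had to differ, so that the count is a description. Fits in which a gene fell under the filter are not among the 228. The 5 values that lost the call were all the Cd3g trend over dose. The number of members called in that trend, 1 as reported, was 0 with groups from the agent tag and with a term for the 4 libraries where fewest genes were in pieces, and ranged from 0 to 2 when single libraries were left out. At 200 µg against untreated tumor it was 1 in a single fit of all 15 libraries and ranged from 0 to 1 when single libraries were left out. The cause was not tested. Counting only transcripts that share an intron with the gene, a choice made after seeing the data, left 4, 5, 0, 0, 0 and 1 members called.

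Members not called changed sign in 47 of 845 alternative values over all members. With the plain FPKM sum these were Nkg7 at 100 µg (-0.0378) and in the trend (-0.0357), Foxp3 at 200 µg (0.0366), and Prf1 at 200 µg (-0.0121) and in the trend (-0.0697). The Nkg7 trend was -0.25 with a pseudocount of 0.1 and -0.0141 with median-of-ratios scaling. With the agent tag, Cd3g at 50 µg was -0.0466, Nkg7 0.72 at 50 µg and 1.23 at 200 µg, and Gzma 1.26 at 200 µg and 0.47 in the trend. Without the 4 libraries whose tag disagreed, Nkg7 was 0.0488 at 50 µg and 0.73 at 200 µg, and Gzma 0.85 at 200 µg and 0.29 in the trend. With the term for pieces, Gzma was -0.33, Gzmb -0.0851 and Nkg7 -0.11 at 100 µg. At 200 µg Foxp3 was 0.22, Gzmb -0.53 and Prf1 -0.0434. In the trend Foxp3 was 0.17, Gzmb -0.15 and Nkg7 -0.36. Leaving out single libraries gave ranges of -0.44 to 0.47 for Gzma, -0.0851 to 0.56 for Gzmb and -0.11 to 0.24 for Nkg7 at 100 µg. At 200 µg the ranges were -0.62 to 0.43 for Gzma, -0.13 to 0.98 for Gzmb, -0.65 to 0.60 for Nkg7 and -0.14 to 0.0869 for Foxp3. In the trend they were -0.41 to 0.0893 for Gzma, -0.14 to 0.38 for Gzmb and -0.20 to 0.40 for Nkg7, and Cd3g at 50 µg ranged from -0.0335 to 0.30.

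Same-numbered libraries did not pair: their deviations correlated at -0.07 to 0.24 over 30 pairs. With a replicate block the members called were still 4, 5, 0, 0, 0 and 1, while all genes called at 200 µg fell from 415 to 213 and at 100 µg from 13 to 0. Over all alternatives the genes called ranged from 0 to 9 at 50 µg, 0 to 49 at 100 µg, 8 to 1176 at 200 µg, 0 to 2016 in the trend (1104 as reported), 5760 to 10722 for untreated tumor against brain and 6265 to 13068 for the 4 tumor groups against brain. Median-of-ratios scaling moved the median difference of all genes from 0.14 to -0.08 and from 0.27 to 0.02 in those last 2 comparisons. Cd3g, Gzma, Gzmb and Nkg7 stayed called higher, but at 0 in brain they had to differ under that scaling too. Cd4 and Foxp3 were called lower in untreated tumor than in brain without brain replicate 3 (-2.23 and -0.72), Cd4 also in a single fit of all 15 libraries (-1.58) and Foxp3 with median-of-ratios scaling (-0.64). Over the 4 tumor groups Foxp3 was called lower with the plain FPKM sum (-0.83), with that scaling (-0.54) and without brain replicate 3 (-0.58). Without brain replicate 2 Cd4 could not be tested in either comparison. In untreated tumor against brain Nkg7 was not tested with groups from the agent tag or without the 4 libraries whose tag disagreed. The same held without replicate 3 of untreated tumor. When single libraries were left out, 3 to 6 members were called in that comparison. Where above 0, the values of Cd3d, Cd3e and Cd8a rest on 18.1 to 79.4 estimated fragments. Those of Cd4 in tumor rest on 29.2 to 64.8, and Prf1 had 14.8 in replicate 3 at 200 µg. The part of depth in the zeros was not tested.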
